A study of Mus musculus with 11 samples.

Results

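Genes of platelets and megakaryocytes were followed in mouse lung by a list of 10 symbols, Pf4, Ppbp, Itga2b, Itgb3, Gp9, Gp6, Clec1b, Treml1, Nrgn and Gp5. Members were the listed symbols with a value row of their own, and 9 of the 10 had 1 such row each, among 19938 genes. Gp6, the collagen receptor of platelets, was not analysed here. Lungs of strain 129S1 mice were profiled on 11 arrays in a study of lung cancer suppression. The combination group (3 arrays) received aspirin at 4 mg per kg body weight with triptolide at 1 mg per kg, the aspirin group (3 arrays) aspirin alone at 4 mg per kg, and the triptolide group (3 arrays) triptolide alone at 1 mg per kg, all by gavage on 5 days a week for 2 months. The control group (2 arrays) is called untreated in the titles, while the protocol lists PBS buffer; which it was cannot be settled from the labels. The labels name no transgene, tumour or carcinogen in any group and give neither sex nor age, and they do not say that arrays of a group came from separate animals, so p-values here measure the spread between these samples only.

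Platelets are cell fragments without a nucleus that circulate in blood, stick to injured vessel walls and release granules that promote clotting and inflammation. They are shed by megakaryocytes, and in mice some megakaryocytes release platelets inside the lung vessels. Their RNA comes from the megakaryocyte, so both share most markers. Aspirin is known to block the platelet's own thromboxane synthesis, and triptolide, a plant compound, blocks transcription by binding a helicase subunit of the factor TFIIH.

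The genes lie on several chromosomes, and their promoters are shown because their levels varied together from array to array. On GRCm38.p6, Ppbp lies at chr5:90768518-90770063 and Pf4 beside it at chr5:90772435-90773383, Itga2b at chr11:102453297-102469883 and Itgb3 at chr11:104608000-104670476, Gp9 at chr6:87776131-87779786 and Clec1b at chr6:129397297-129405413, Treml1 at chr17:48359916-48367176, Nrgn at chr9:37544493-37552745 and Gp5 at chr16:30307685-30310781. The 250 bases before the start, from RefSeq, follow for Gp9, Itga2b, Pf4 and Gp5, the 4 listed genes whose promoter held an ETS word, and they were picked for it. For Gp9 the start in that table lies inside the annotated extent of the gene. Capitals mark ETS words (AGGAAG or CGGAAG) and GATA words (AGATAA or AGATAG, and with T as the first letter, TGATAA or TGATAG) on either strand.
Gp9, GRCm38.p6 chr6:87777820-87778069, plus strand: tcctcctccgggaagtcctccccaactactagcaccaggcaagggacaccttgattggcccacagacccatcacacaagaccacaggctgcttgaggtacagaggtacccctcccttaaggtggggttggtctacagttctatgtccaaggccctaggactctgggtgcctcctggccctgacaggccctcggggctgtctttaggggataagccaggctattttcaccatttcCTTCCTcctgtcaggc
Itga2b, GRCm38.p6 chr11:102469884-102470133, minus strand: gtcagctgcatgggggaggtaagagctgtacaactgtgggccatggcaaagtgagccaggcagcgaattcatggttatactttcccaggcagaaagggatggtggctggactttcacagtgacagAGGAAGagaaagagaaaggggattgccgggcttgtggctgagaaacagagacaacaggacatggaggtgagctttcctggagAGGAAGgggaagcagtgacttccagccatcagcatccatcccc
Pf4, GRCm38.p6 chr5:90772185-90772434, plus strand: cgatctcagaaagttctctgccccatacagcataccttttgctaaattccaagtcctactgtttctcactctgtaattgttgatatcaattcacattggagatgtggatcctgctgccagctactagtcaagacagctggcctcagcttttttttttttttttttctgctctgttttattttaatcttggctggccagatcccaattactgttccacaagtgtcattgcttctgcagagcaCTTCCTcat
Gp5, GRCm38.p6 chr16:30310782-30311031, minus strand: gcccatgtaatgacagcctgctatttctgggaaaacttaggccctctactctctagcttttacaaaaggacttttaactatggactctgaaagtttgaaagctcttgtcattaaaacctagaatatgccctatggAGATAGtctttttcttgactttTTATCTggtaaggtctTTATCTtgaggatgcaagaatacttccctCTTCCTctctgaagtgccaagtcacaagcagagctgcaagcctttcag
Megakaryocyte genes are known to be driven by GATA and ETS transcription factors. An ETS word lay at position -9 from the start of Pf4, at -16 in Gp9, at -125 and -43 in Itga2b and at -48 in Gp5, counting to the first letter of the word. In Gp5 the GATA words lay at -115, -93 and -77. Of the 9 listed genes with a promoter in the table, Gp6 included and Itgb3 not, 4 held an ETS word and 3 a GATA word, against 39.2% and 26.5% of all 32851 promoters of that length. A RUNX word (TGTGGT or TGCGGT, both strands) was in 1 of the 9, against 18.6%, and 1 of the 9 held both an ETS and a GATA word, against 9.21%. The shares among the listed genes were near those of all promoters, and a word match is not a binding site.

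Values are log2 expression, and a difference of 1 is a doubling. The lung epithelial marker Sftpc read 13.62 to 14.27 on all arrays, as in lung tissue. Array medians ran from 8.13 to 8.25 and correlations between arrays over all genes from 0.9474 to 0.9965. Combination 1 stood apart at 60.2 on the first principal component, with the others between -15 and 6.79. Xist, which in females coats the inactive X chromosome, read 12.26 to 12.80 in combination lungs, 6.77 to 7.0 in aspirin lungs, 6.61 to 12.32 in triptolide lungs and 11.98 and 12.07 in control lungs, and the Y-linked Eif2s3y read 4.58 to 6.76, 9.26 to 9.48, 6.39 to 9.82, and 5.29 and 5.05 in the same groups. All aspirin arrays were thus high in Y-linked RNA and both controls low, and for aspirin against control, and for the combination against aspirin, this cannot be told apart from the treatment. Triptolide 2 and 3 were high as well, so the triptolide comparisons and the interaction of the drugs are also mixed with it in part.

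All 9 measured genes were higher in aspirin lungs than in control lungs, on every aspirin array, by 0.49 to 2.85 on the log2 scale. The chemokines of the granules differed most and the receptors Gp5 and Treml1 least. None passed the test over all genes (limma, adjusted p of 1 for each of the 9), and no gene of the whole table did either, so what follows describes values. In whole lung RNA, more platelets or megakaryocytes and more RNA in each of them cannot be told apart.

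Pf4 encodes platelet factor 4, a chemokine stored in alpha granules that binds heparin. It read 9.78, 8.52 and 8.91 on combination 1, 2 and 3, 9.22, 11.20 and 9.92 on aspirin 1, 2 and 3, 8.95, 9.33 and 9.21 on triptolide 1, 2 and 3, and 8.47 and 8.54 on control 1 and 2. Aspirin and triptolide arrays all lay above both controls, and combination 2 lay between the controls. The difference between aspirin and control was 1.61 ± 0.48 (SE), which is 3.05-fold, at group means of 10.12 ± 1.00 (SD, n = 3) in aspirin lungs and 8.51 ± 0.05 (SD, n = 2) in control lungs.

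Ppbp encodes pro-platelet basic protein, the precursor of chemokines that attract neutrophils. It had the widest span of the list, 5.35 between the lowest and the highest array. It read 11.96, 7.85 and 8.90 on combination 1, 2 and 3, 10.11, 13.20 and 11.71 on aspirin 1, 2 and 3, 8.42, 9.53 and 9.91 on triptolide 1, 2 and 3, and 8.58 and 9.07 on the controls. All aspirin arrays were above all triptolide and control arrays, while combination 1 exceeded both aspirin 1 and aspirin 3. Aspirin minus control was 2.85 ± 1.09 (7.19-fold), and the SD within the combination group, 2.14, was larger than the difference of 0.74 ± 1.09 between combination and control.

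Itga2b and Itgb3 encode the chains of integrin αIIbβ3, the fibrinogen receptor that links platelets to each other. The β3 chain is also made by other cells, while the αIIb chain is a marker of the megakaryocyte line. Itga2b read 9.15, 8.20 and 8.32 on combination 1, 2 and 3, 8.74, 9.96 and 8.99 on aspirin 1, 2 and 3, 8.30, 8.36 and 8.51 on triptolide 1, 2 and 3, and 8.41 and 8.22 on the controls. Itgb3 read 10.17, 9.42 and 9.55 with the combination, 9.89, 11.42 and 10.29 with aspirin, 9.65, 9.38 and 9.71 with triptolide, and 9.65 and 9.70 in control. In both genes every aspirin array lay above every triptolide and control array, and only combination 1 of the combination arrays lay above both controls. Aspirin minus control was 0.91 ± 0.34 for Itga2b and 0.86 ± 0.37 for Itgb3, at similar folds of 1.89 and 1.81.

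Gp9 and Gp5 encode subunits of the glycoprotein Ib-IX-V complex, the receptor for von Willebrand factor, and loss of Gp9 in humans causes a bleeding disorder. Gp9 read 9.64, 8.21 and 8.49 on combination 1, 2 and 3, 8.95, 10.85 and 9.44 on aspirin 1, 2 and 3, 8.37, 8.48 and 8.78 on triptolide 1, 2 and 3, and 8.36 and 8.19 on the controls. Gp5 read 8.71, 8.71 and 8.37 with the combination, 8.69, 9.37 and 8.54 with aspirin, 8.44, 8.35 and 8.46 with triptolide, and 8.38 and 8.29 in control. Both subunits were highest on aspirin 2, but combination 2 was as high as combination 1 for Gp5 and near control for Gp9. Aspirin minus control was 1.47 ± 0.50 for Gp9 (2.78-fold) and 0.53 ± 0.21 for Gp5 (1.45-fold).

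Clec1b encodes CLEC-2, a platelet activation receptor whose ligand is podoplanin, a protein of lymphatic endothelium and of alveolar type 1 cells. It was the member in which the groups separated most, with 80.8% of its variance over the arrays lying between groups. It was also the only member with a mean level below the 25th percentile of all genes, so its signal was low. It read 7.0, 6.90 and 6.97 on combination 1, 2 and 3, 7.42, 7.97 and 7.52 on aspirin 1, 2 and 3, 6.88, 7.10 and 7.08 on triptolide 1, 2 and 3, and 7.08 and 6.99 on the controls. Every aspirin array was above all 8 other arrays, which held for 1 of the 9 genes, and combination 1, high in the other members, was within 0.04 of the control mean. Aspirin minus control was 0.60 ± 0.15, and combination minus aspirin was -0.68 ± 0.13 (adjusted p = 0.108).

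Treml1 encodes TLT-1, a receptor kept in alpha granules until platelets are activated, and Nrgn encodes neurogranin, a calmodulin-binding protein known mainly from neurons and also present in platelets. Treml1 read 9.15, 8.72 and 8.69 on combination 1, 2 and 3, 9.08, 9.57 and 9.04 on aspirin 1, 2 and 3, 8.76, 8.46 and 8.68 on triptolide 1, 2 and 3, and 8.79 and 8.68 on the controls. Nrgn read 9.87, 9.20 and 9.37 with the combination, 9.86, 10.39 and 9.94 with aspirin, 9.29, 9.36 and 9.69 with triptolide, and 9.43 and 9.34 in control. In both genes the aspirin arrays lay above all triptolide and control arrays, and combination 1 lay at the level of aspirin 1. Aspirin minus control was 0.49 ± 0.18 for Treml1 and 0.68 ± 0.21 for Nrgn. A list of 9 neuronal markers, such as Snap25 and Syt1, had levels (the mean log2 deviation of its genes from their mean over all arrays) of -0.14 to -0.04 in combination, 0.03 to 0.15 in aspirin, -0.12 to 0.11 in triptolide and 0.01 and 0.08 in control lungs.

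**Figure D1:**
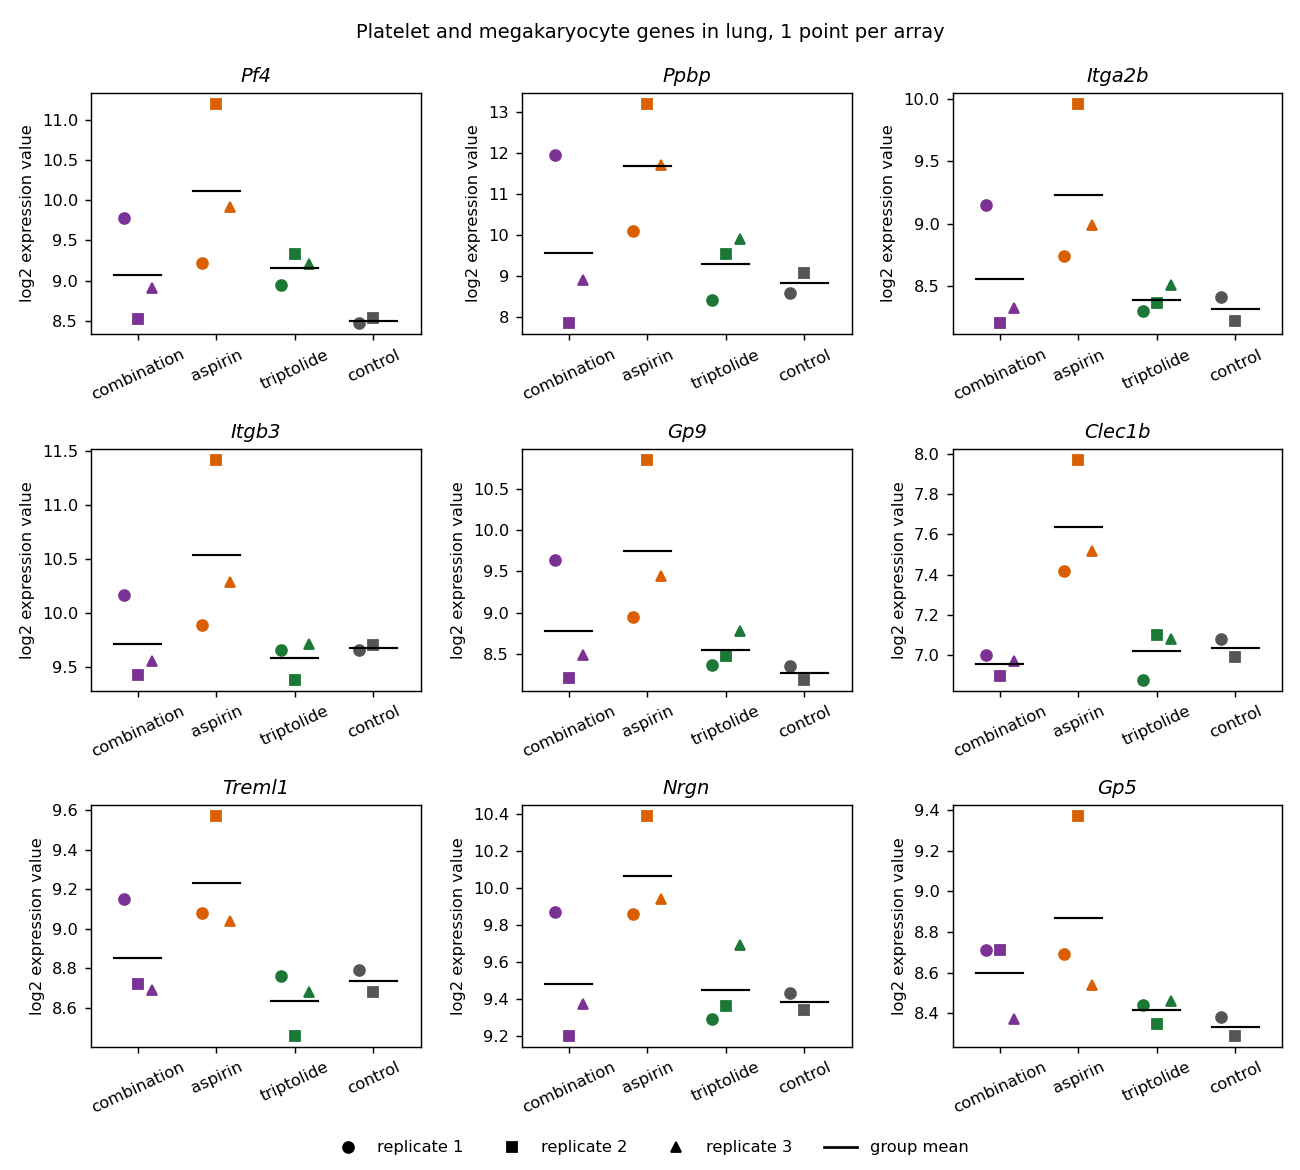
Log2 expression value (vertical axis, its own range in each panel) of the 9 measured platelet and megakaryocyte genes by group, with 1 point per array, the replicate number as the symbol and the group mean as a line. Aspirin 2 (square) is the highest array in all 9 panels, and combination 1 (circle) is near the aspirin arrays in most but not for Clec1b.

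Aspirin against control asked what aspirin alone changes. All 9 genes had every aspirin array above both control arrays, where 10% of all genes did. Their median difference was 0.86, against 0.00 over all genes, and 9 of 9 were higher at an unadjusted p under 0.05, against 1.35% of all genes. At an adjusted p under 0.05 limma called 0 of the 9 and 0% of all genes, with 609 genes at an unadjusted p under 0.05. The fit without moderation also called 0 genes here and in every other comparison below. With gene-by-gene array weights, 6 of the 9 passed (Pf4, Ppbp, Itga2b, Gp9, Clec1b and Nrgn, limma, adjusted p from 0.0128 to 0.0477). That fit called 526 of all 19938 genes, and it gave aspirin 3 a weight of 5.98 and aspirin 2 one of 0.62. With the mean of 3 Y-linked genes as a covariate the median difference was 0.66, and that of Ppbp was 0.91 ± 1.91.

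A single array held much of the difference. Aspirin 2 was the highest of the 11 arrays in 9 of 9 genes, at a median of 1.65 above the control mean, against 0.42 on aspirin 1 and 0.61 on aspirin 3. Without aspirin 2 the aspirin differences were 0.28 (Gp5) to 2.08 (Ppbp), with a median of 0.52, and Pf4 differed by 1.06. All 9 genes still had both remaining aspirin arrays above both controls, where 21.2% of all genes did, and 4 of 9 were higher at an unadjusted p under 0.05, against 1.93%. With combination 1 left out as well, an alternative chosen after the data were seen, the 9 differences were the same and 9 of 9 were higher at an unadjusted p under 0.05, against 3.38% of all genes, and none passed after adjustment.

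Markers of other blood cells were also high on aspirin 2. The neutrophil list, 14 of 14 measured, stood at 2.28 on aspirin 2 and at -0.31 and -0.49 on aspirin 1 and 3, against -0.40 to 0.46 in combination, -0.35 to 0.33 in triptolide and -0.45 and -0.44 in control lungs, and 10 of the 14 were highest on aspirin 2. S100a8, a calcium-binding protein of neutrophils, read 8.12, 12.10 and 7.72 on aspirin 1, 2 and 3, against 7.92 and 7.88 in control. Retnlg and Mmp8, also of neutrophils, read 12 and 11.62 on aspirin 2 and no more than 8.0 and 6.97 on the other aspirin arrays. Aspirin 3, the second highest aspirin array in the platelet list, was thus not high in neutrophil markers.

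The erythroid list, 8 of 14 measured, stood at -0.30, 0.45 and 0.11 on aspirin 1, 2 and 3, at -0.74 to -0.38 with triptolide and at -0.41 and -0.50 in control. Alas2, the heme synthesis enzyme of red cells, read 10.62, 12.73 and 11.99 on aspirin 1, 2 and 3 and 10.62 and 10.52 in control, and Slc4a1, the anion exchanger of the red cell membrane, read 8.87, 11.21 and 10.38 against 8.44 and 8.41. Rhag, a red cell membrane protein, read 5.88, 6.48 and 6.05 against 5.89 and 5.82. The order aspirin 2, aspirin 3, aspirin 1 was found in 6 of the 8 erythroid genes, not in Klf1 and Ermap, and in 7 of the 9 platelet genes. No marker of either list was at 0, since the deposited scale gives every row a positive value, and the part of these cells in the platelet difference was not tested.

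Cardiac muscle markers (10 of 10 measured) also differed in the direction of the platelet genes when aspirin was compared with control and with the combination. Their level was -0.24, -0.19 and -0.12 on combination 1, 2 and 3, -0.05, 0.57 and 0.09 on aspirin 1, 2 and 3, -0.14, -0.27 and 0.98 on triptolide 1, 2 and 3, and -0.18 and -0.46 in control. All 10 were higher with aspirin than in control, with a median of 0.53, and 8 of 10 did not overlap. In the combination against aspirin 9 of 10 were lower, 8 of them without overlap, against 9.86% of all genes. The interaction was negative in 10 of 10, and none passed in any of these comparisons. Nppa, with the widest range of these markers over the aspirin arrays, read 7.80, 9.60 and 7.70 on aspirin 1, 2 and 3. Its control values were 8.01 and 7.59, so only aspirin 2 was above both controls. Nppa was also the marker not lower in the combination than with aspirin, at means of 8.62 and 8.37. Myh6, a cardiac myosin chain, read 10.90, 11.49 and 11.12 on aspirin 1, 2 and 3, against 10.78 and 10.44 in control. The part of heart tissue in the platelet differences was not tested.

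The monocyte list (7 of 8) spanned -0.17 to 0.29 in aspirin and 0.00 to 0.06 in control lungs, and the basophil and mast cell list (9 of 9) -0.10 to -0.03 and 0.03 to 0.20. Endothelial markers (12 of 12) stood at -0.71 to -0.22 in combination, 0.15 to 0.26 in aspirin, -0.14 to 0.20 in triptolide and 0.31 and 0.40 in control lungs. Lung epithelial markers (8 of 8) stood at -0.68 to -0.02 in combination, 0.01 to 0.11 in aspirin, 0.07 to 0.28 in triptolide and 0.07 and 0.10 in control lungs.

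**Figure D2:**
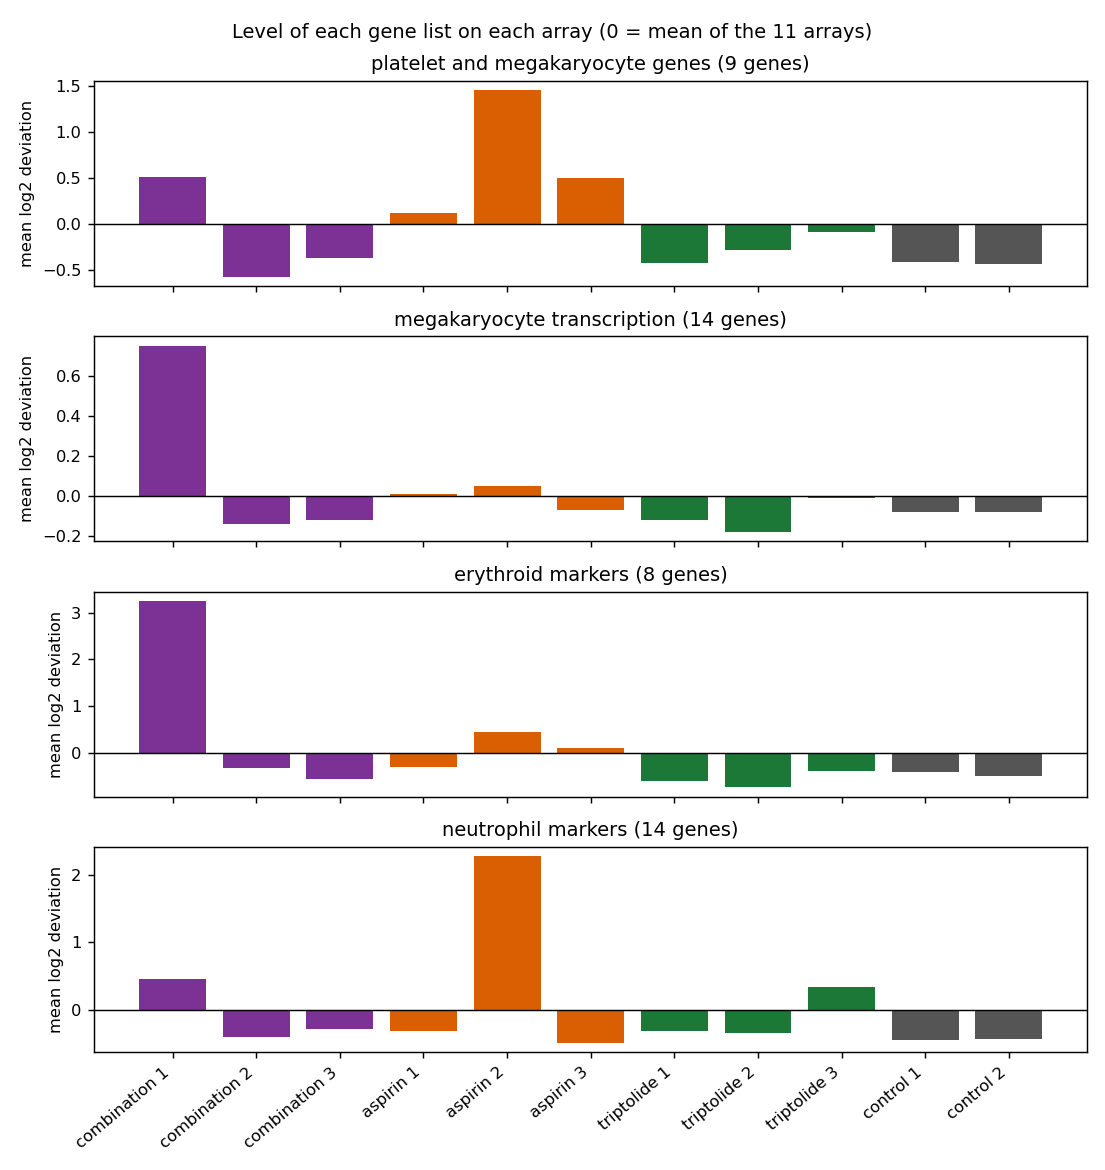
Level of 4 gene lists on each of the 11 arrays, as the mean log2 deviation of the list's genes from their mean over all arrays (vertical axes differ between panels). The platelet list is highest on aspirin 2 at 1.45, followed by combination 1 at 0.51 and aspirin 3 at 0.50, while megakaryocyte transcription and erythroid markers peak on combination 1 at 0.75 and 3.25 and neutrophil markers on aspirin 2 at 2.28.

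Triptolide against control gave small differences. Of the 9 genes 6 were higher and 3 lower, with a median of 0.08 against -0.01 over all genes. Pf4 and Ppbp had the largest differences, at 0.65 ± 0.48 and 0.46 ± 1.09, and Itgb3 and Treml1 both had -0.10, with SE of 0.37 and 0.18. Only Pf4 and Gp9 had all triptolide arrays above both controls, 2 of 9 against 9.92% of all genes. None passed by limma (adjusted p of 1 for each; 0% of all genes, with 561 genes at an unadjusted p under 0.05), and 0 of the 9 had an unadjusted p under 0.05 in either direction, against 1.16% of all genes higher and 1.66% lower. With the Y-linked covariate the median was -0.12 and Ppbp stood at -1.06.

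Aspirin against triptolide compares the single drugs. All 9 genes were higher with aspirin, by 0.46 (Gp5) to 2.39 ± 0.98 (Ppbp), with a median of 0.84 against 0.01 over all genes. In 8 of 9 every aspirin array lay above every triptolide array, against 4.00% of all genes. Pf4 was the exception, with aspirin 1 at 9.22 and triptolide 2 at 9.33. At an unadjusted p under 0.05, 8 of the 9 were higher, against 1.52% of all genes, and none passed after adjustment (limma, adjusted p of 0.96 each; 0% of all genes). With array weights 1 of the 9 passed, Clec1b at 0.51 (limma, adjusted p = 0.0347), where 137 of all 19938 genes did. Clec1b, at 0.62 ± 0.13, had the 8th smallest p of all 19938 genes, at a mean level below the 25th percentile of all genes. The aspirin arrays had Y-linked means of 8.88 to 9.09, and triptolide 2 and 3 had 9.36 and 9.08, although triptolide 2 was also high in Xist (9.75, against 6.61 on triptolide 3). Against those triptolide arrays alone 8 of 9 genes were again higher on every aspirin array, where 9.79% of all genes were. Without aspirin 2 the median was 0.45 and 8 of 9 still did not overlap with triptolide, against 14.3%.

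**Figure D3:**
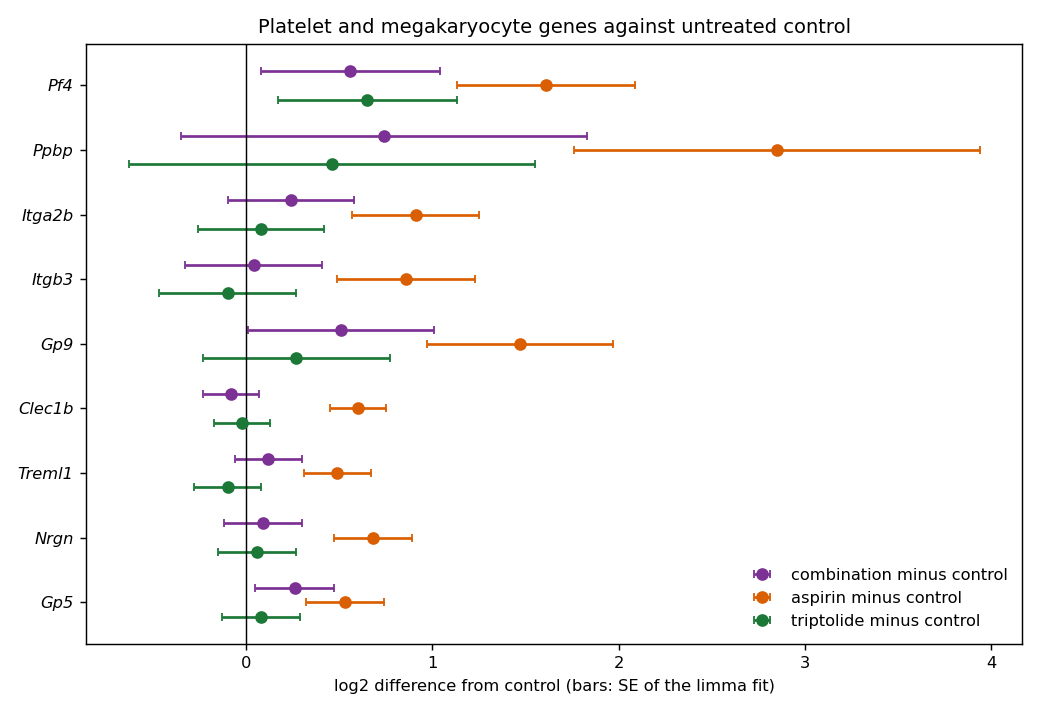
Log2 difference from untreated control (horizontal axis, bars are the SE of the limma fit) of the 9 genes for the combination, aspirin and triptolide groups. Aspirin differences run from 0.49 to 2.85 and lie right of the other groups in every gene, while those of triptolide and the combination run from -0.10 to 0.74.

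The combination against control asked what both drugs together change. Of the 9 genes 8 were higher and 1 lower, with a median of 0.24 against 0.01 over all genes, and the largest differences were those of Ppbp at 0.74 ± 1.09, Pf4 at 0.56 ± 0.48 and Gp9 at 0.51 ± 0.50. No gene of the 9 had combination arrays wholly above or wholly below control, where 14.2% and 20.5% of all genes did. None passed (limma, adjusted p from 0.622 to 0.98; 0% of all genes, with 2795 genes at an unadjusted p under 0.05), and 0 of 9 had an unadjusted p under 0.05, against 3.41% higher and 10.6% lower.

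Combination 1 carried these differences. It was above combination 2 and 3 in all 9 genes when unrounded and above both controls in 8, and without it 3 genes were higher and 6 lower, with a median of -0.05 and Ppbp at -0.45. Its profile differed from that of aspirin 2. Relative to the control mean, combination 1 stood at 3.14 for Ppbp and aspirin 2 at 4.38, at 1.27 and 2.69 for Pf4, at 0.49 and 1.74 for Itgb3 and at -0.04 and 0.94 for Clec1b, in that order of arrays. Combination 1 therefore reached 71.7% of the aspirin 2 difference in Ppbp on the log2 scale and 28.2% in Itgb3. Beside this, the erythroid list stood at 3.25 on combination 1, with 7 of 8 genes highest there, and the cell cycle list (7 of 8 measured) at 2.84, where the other arrays lay between -0.51 and -0.03. Mki67, a marker of dividing cells, read 12.60 there and 8.13 to 9.19 on the other arrays. The part of these cells was not tested.

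Against aspirin alone, the combination was lower in 9 of 9 genes, from -0.27 ± 0.18 (Gp5) to -2.10 ± 0.98 (Ppbp), with a median of -0.68 against 0.00 over all genes. At an unadjusted p under 0.05, 6 of 9 were lower, against 8.22% of all genes, and in 1 of 9, Clec1b, every combination array lay below every aspirin array, against 9.86%. None passed (limma, adjusted p from 0.108 to 0.604; 0% of all genes, with 2322 genes at an unadjusted p under 0.05). Without combination 1, 8 of 9 genes had both remaining combination arrays below all aspirin arrays, against 13.1% of all genes, and the median was -0.97; Gp5 was the exception. Without aspirin 2 the median was -0.41. Without combination 3 Clec1b passed at -0.69 (limma, adjusted p = 0.0444), in a fit that called 704 of all 19938 genes. With array weights 4 of the 9 passed, Clec1b, Ppbp, Nrgn and Pf4 (limma, adjusted p from 0.0142 to 0.0307), where 873 of all 19938 genes did.

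Against triptolide alone, the combination was higher in 7 of 9 genes and lower in 2, with a median of 0.16 against 0.02 over all genes and no difference above 0.29. None of the 9 had groups that did not overlap, against 8.36% of all genes higher and 9.53% lower, and none had an unadjusted p under 0.05, against 3.50% higher and 10.1% lower (limma, adjusted p from 0.478 to 0.93; 0% of all genes, with 2703 genes at an unadjusted p under 0.05). Without combination 1 the median was -0.13 and 7 of 9 genes were lower. The interaction of the drugs was negative in 9 of 9 genes, with a median of -0.72 against 0.01 over all genes. Pf4 stood at -1.70 ± 0.65 and Clec1b at -0.67 ± 0.20, and 3 of 9 (with Nrgn) had an unadjusted p under 0.05 and were negative, against 2.23% of all genes, while none passed (limma, adjusted p of 0.895 each; 0% of all genes, with 681 genes at an unadjusted p under 0.05). The interaction shares its arrays with the comparisons above. Y-linked RNA was high on all aspirin arrays and on triptolide 2 and 3, and low on the control and combination arrays. The interaction is therefore mixed with that difference, and the part of it was not tested. Without aspirin 2 the interaction median was -0.49, and with the Y-linked covariate the interaction of Ppbp was 0.67 ± 3.01.

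Across groups, the aspirin mean was the highest in 9 of 9 genes, the combination mean was second in 7, and the control mean was the lowest in 6. The step between the highest and the second mean was within the larger SD of those groups in 4 of 9 genes, that between the second and the third in 9 of 9, and that between the third and the lowest in 7 of 9. For Itga2b, for example, the means were 8.56 ± 0.51 in combination, 8.39 ± 0.11 in triptolide (SD, n = 3 each) and 8.31 ± 0.13 in control lungs (SD, n = 2). In aspirin and combination lungs, and less so in triptolide lungs, the members also varied more within groups than all genes, but not in control lungs. The median SD was 0.40 in combination, 0.65 in aspirin, 0.18 in triptolide and 0.06 in control lungs for the 9 genes, against 0.13, 0.12, 0.12 and 0.06 over all genes in the same order. Between-group differences held a median of 51.1% of a member's variance, against 33.0% over all genes.

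The members varied together from array to array. Over the 11 arrays, which include both high ones, the Pearson correlation of a gene with the mean of the other 8 was 0.993 for Gp9, 0.991 for Itga2b, 0.965 for Nrgn, 0.956 for Pf4, 0.953 for Itgb3, 0.934 for Ppbp, 0.90 for Treml1, 0.861 for Clec1b and 0.818 for Gp5. These are descriptions of arrays that share platform and processing. Taken on deviations from the group means they ran from 0.673 (Gp5) to 0.995 (Gp9), and without aspirin 2 from 0.459 (Gp5) and 0.631 (Clec1b) to 0.981 (Gp9). Gp5 and Clec1b thus depended most on aspirin 2.

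Other platelet and megakaryocyte genes were taken from lists written from general knowledge, with earlier results of these data known. In none of the lists did a gene pass for any comparison with control. Of the 18 measured receptors, 11 were higher and 7 lower with aspirin, with a median of 0.07, and 7 had every aspirin array above both controls, against the 10% of all genes. Cd226, an adhesion receptor also found on lymphocytes, differed by 0.77 ± 0.17 (adjusted p of 1). With the combination 7 receptors were higher and 11 lower, with a median of -0.05. The smallest p-values belonged to genes that endothelium also makes, Esam, a junction adhesion molecule, at -0.79 ± 0.16 (adjusted p = 0.0735), and the integrin chains Itga6 at -0.67 ± 0.16 and Itga2 at -0.65 ± 0.16. With triptolide 8 were higher and 10 lower, with a median of -0.01.

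Of the 18 measured genes of granule cargo and secretion, 12 were higher and 6 lower with aspirin (median 0.03), 11 higher and 7 lower with triptolide (median 0.04), and 4 higher and 14 lower with the combination (median -0.12). Pdgfb, a growth factor chain of platelets and endothelium, differed by -0.77 ± 0.15 in the combination, Rab27b, a GTPase of granule release, by -0.73 ± 0.16, Unc13d, which primes granules for fusion, by -0.37 ± 0.11 and Sparc, a matrix protein, by -0.43 ± 0.13, with adjusted p from 0.0699 to 0.178. Vwf, made by endothelium as well as megakaryocytes, read 11 to 11.53 in combination, 11.71 to 12.11 in aspirin, 11.43 to 11.66 in triptolide, and 11.68 and 11.77 in control lungs. It was lowest on combination 1, unlike the 9 members, and was picked after its values were seen.

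Of the 19 measured genes of platelet signalling and cytoskeleton, 15 were higher and 4 lower with aspirin (median 0.13), 13 higher and 6 lower with triptolide (median 0.16), and 12 higher and 7 lower with the combination (median 0.07). Syk, the kinase that signals below Clec1b and Gp6, differed by 0.59 ± 0.17 in the combination, its substrate Plcg2 by 0.39 ± 0.14, and the cation channel Trpc6 by -0.59 ± 0.18, while Rasgrp2, which activates the integrin through Rap1, differed by 0.33 ± 0.10 with aspirin. Syk and Plcg2 are also used by B cells and myeloid cells. None of these passed, with adjusted p from 0.153 to 1.

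Megakaryocyte transcription and thrombopoietin genes differed little with aspirin. Of the 14 measured, 10 were higher and 4 lower with aspirin (median 0.08), 7 higher and 7 lower with triptolide (median -0.01), and 8 higher and 6 lower with the combination (median 0.25). The list level was 0.01, 0.05 and -0.07 on aspirin 1, 2 and 3, and 0.75 on combination 1, where 8 of the 14 were highest. Gata1, which drives both megakaryocyte and erythroid genes, read 10.79 there and 7.08 to 7.94 on the other arrays, and Gfi1b, a repressor of the same lineages, 11.50 there and 8.31 to 8.76 elsewhere, both picked after their values were seen. By the fixed rule the genes with the smallest p were Gata2 at -0.62 ± 0.20, Fli1 at -0.33 ± 0.11, Mafg at 0.22 ± 0.09 and Meis1 at -0.50 ± 0.21, all in the combination, with adjusted p from 0.2 to 0.334.

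Genes most like the members were ranked by Pearson correlation with the members' mean level over the 11 arrays, among 17145 named genes outside the list. The 12 closest were Alox12 (0.980), Npy (0.973), Mpig6b (0.972), Slc2a3 (0.970), Tubb1 (0.961), Bpgm (0.945), Slamf1 (0.942), Rgs18 (0.940), Tmem40 (0.938), Tent5c (0.929), Fam220a (0.928) and Riok3 (0.925). On deviations from group means their correlations ran from 0.911 to 0.987, and without aspirin 2 from 0.790 to 0.958. Since they were picked for this likeness, their order of arrays is a description of the choice. Of the 12, 5 were already in the platelet lists, which were written with earlier results of these data known.

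Alox12, the platelet 12-lipoxygenase, read 8.78, 7.45 and 7.80 on combination 1, 2 and 3, 8.32, 10.35 and 8.86 on aspirin 1, 2 and 3, 7.78, 8.04 and 8.05 with triptolide and 8.01 and 7.99 in control. Tubb1, the β1 tubulin of the platelet's marginal band, read 10.92, 8.51 and 8.84 with the combination, 9.38, 11.42 and 9.91 with aspirin, 8.69, 8.82 and 9.17 with triptolide and 8.78 and 8.72 in control. Mpig6b, an inhibitory receptor of megakaryocytes and platelets, read 8.61, 7.96 and 8.17 with the combination, 8.59, 9.99 and 8.84 with aspirin, 8.14, 8.20 and 8.23 with triptolide and 8.18 and 8.09 in control. Tubb1 was nearly as high on combination 1 as on aspirin 2, while there Alox12 was closest to aspirin 3 and Mpig6b to aspirin 1. Bpgm, a red cell enzyme that makes the regulator of oxygen release, read 10.51, 8.30 and 8.42 with the combination, 9.10, 10.85 and 10.18 with aspirin, 8.43, 8.75 and 8.93 with triptolide and 8.79 and 8.82 in control.

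**Figure D4:**
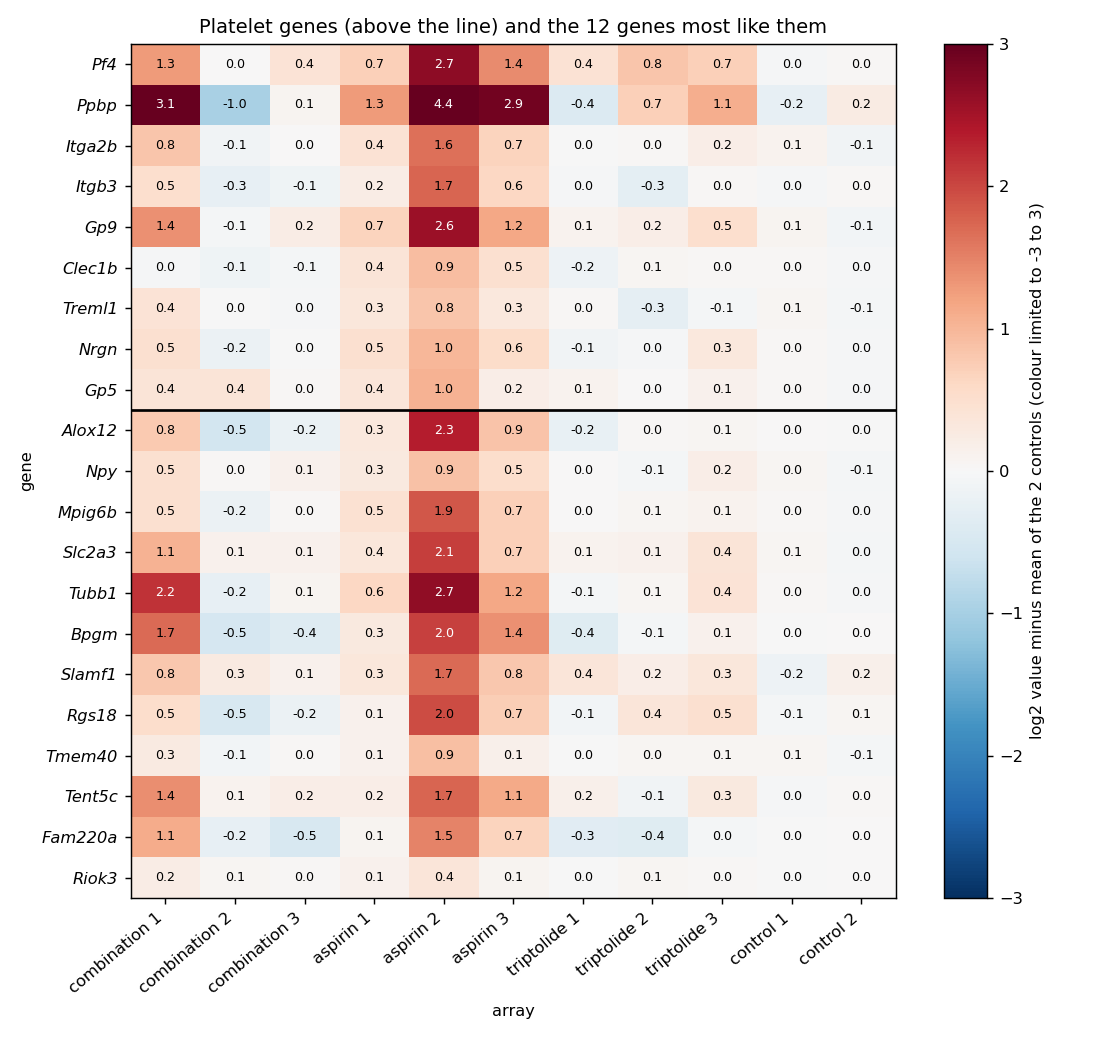
Log2 value minus the mean of the 2 control arrays (colour and printed number, colour limited to -3 and 3) of the 9 platelet and megakaryocyte genes, above the line, and of the 12 genes most like them, below it, on the 11 arrays. Aspirin 2 is the strongest column in every row, aspirin 3 and combination 1 follow in most, and Clec1b is near control on combination 1.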

How the data were processed

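Total RNA of 11 lung tissue samples was labelled with biotin and hybridised to Affymetrix arrays, per the labels' protocols. The deposited value table holds log2 expression values, 1 column per sample, and the submitters' processing notes name RMA and Partek; neither a version nor a role is stated for them in the sources used here. The authors' values were used as deposited. Of 35556 value rows, 21789 carry exactly 1 symbol in the platform annotation, 1621 carry several and 12146 are not listed, and the row with the highest mean stood for each of 19938 genes. The number of arrays limits the precision.

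A linear model with 4 group means was fitted to all arrays and genes with limma 3.58.1 in R 4.3.3 (7 residual and 3.68 prior degrees of freedom), with p-values adjusted by Benjamini-Hochberg over all genes at a threshold of 0.05. It was tested on simulated data. Array weights were estimated gene by gene because the restricted maximum likelihood estimate did not converge. Same-numbered arrays of different groups correlated between -0.14 and 0.33 (15 pairs, 5 over 0.1) in their deviations from group means. Different-numbered arrays correlated between -0.38 and 0.34 (30 pairs, 4 over 0.1). The labels give the numbers no meaning, so they were not taken to pair the samples, and a replicate block was run as an alternative. Named genes were all members, up to 4 genes per platelet list with the smallest p, the 12 genes most like the members, up to 3 markers per other cell type with the widest range over the aspirin arrays, and the sex-linked genes. The members and lists were chosen with earlier results of these data known. Promoters came from the RefSeq table of GRCm38.p6. Alternatives were centring, quantile normalization, a filter on low values, fewer groups in the fit, array weights, no moderation, the mean of all rows, a Y-linked covariate, a replicate block and leaving out arrays.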

Additional observations from a re-analysis of the deposited data

Results flagged for a closer look

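In 4 genes the difference with a drug ran in opposite directions, on every array, without and with the other drug. The rule was applied to the members only. The share of all genes that meet it was not counted, so the 4 cannot be set against it. Each value is the limma interaction on the log2 scale. These differences are mixed with Y-linked RNA, which was high on all aspirin arrays and on triptolide 2 and 3 and low on control and combination arrays. For Pf4, Gp9 and Gp5 every combination array lay below the aspirin mean, while every triptolide array lay above the control mean, with interactions of -1.70, -1.24 and -0.35. For Clec1b every combination array lay below the triptolide mean, while every aspirin array lay above the control mean, with an interaction of -0.67. None passed the limma interaction test, with an adjusted p of 0.895 for each. Without aspirin 2, combination 1 lay above the mean of aspirin 1 and 3 in Pf4 (9.78 against 9.57), Gp9 (9.64 against 9.19) and Gp5 (8.71 against 8.62), so the opposite directions on every array ended there in these 3 genes. Their differences between combination and aspirin were then -0.50, -0.41 and -0.02.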

How the results depend on the processing

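These results rest on 2 or 3 arrays a group, and 1 array, aspirin 2 or combination 1, set much of each difference. The direction of all 9 aspirin minus control, combination minus aspirin and aspirin minus triptolide differences was kept under every alternative run. Genes called, 0 as reported, became for combination minus control 83 with median centring, 3 with quantile normalization, 66 with the 25th percentile filter (which leaves out Clec1b), 1717 with array weights, 96 with the Y-linked covariate, 152 with the replicate block and 4 without both aspirin 2 and combination 1. For combination minus aspirin they became 1 with centring, 1 with quantile normalization, 1 with the filter, 2 with only these groups, 873 with weights and 2 without both arrays. For aspirin minus control they became 4 with only these groups and 526 with weights, and for triptolide minus control 10 with weights and 1 without both arrays. With weights they became 1 for combination minus triptolide, 137 for aspirin minus triptolide and 16 for the interaction. The cause was not tested. The numbers share no known animal or batch, and with the replicate block the aspirin minus control median was 0.90. The alternative without both arrays was chosen after seeing the data.

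The triptolide minus control median was -0.12 with the Y-linked covariate. Signs turned for triptolide minus control in Clec1b with quantile normalization (0.02) and with weights (0.00), and with the covariate in Ppbp (-1.06), Itga2b (-0.14), Gp9 (-0.12), Treml1 (0.03) and Nrgn (-0.19). With the covariate they also turned for combination minus triptolide in Pf4 (0.32) and Clec1b (0.12), and for the interaction in Ppbp (0.67). For combination minus control they turned with weights in Ppbp (-0.36), Itga2b (-0.01), Itgb3 (-0.17), Treml1 (0.00) and Nrgn (-0.09), and without both arrays in the same genes (-0.45, -0.05, -0.19, -0.03 and -0.10). For combination minus triptolide they turned with weights in Ppbp (-1.11), Itga2b (-0.16), Itgb3 (-0.17), Gp9 (-0.28) and Nrgn (-0.29), and without both arrays in the same genes (-0.91, -0.13, -0.10, -0.19 and -0.17).

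Leaving out each array in turn, genes called ranged from 0 to 4 for aspirin minus control, 0 to 3 for triptolide minus control, 0 to 896 for combination minus control (896 without combination 3), 0 to 704 for combination minus aspirin, 0 to 24 for combination minus triptolide, 0 to 0 for aspirin minus triptolide and 0 to 6 for the interaction. Medians over the 9 genes ranged from 0.52 to 1.16, 0.02 to 0.12, -0.05 to 0.36, -0.97 to -0.41, -0.13 to 0.28, 0.45 to 1.08 and -1.0 to -0.49 in the same order. Signs turned for triptolide minus control in Itga2b (-0.02 to 0.17), Itgb3 (-0.16 to 0.00), Clec1b (-0.06 to 0.05) and Nrgn (-0.06 to 0.14), for combination minus control in Ppbp (-0.45 to 1.60), Itga2b (-0.05 to 0.42), Itgb3 (-0.19 to 0.18), Treml1 (-0.03 to 0.20) and Nrgn (-0.10 to 0.23), and for combination minus triptolide in Pf4 (-0.45 to 0.18), Ppbp (-0.91 to 1.15), Itga2b (-0.13 to 0.34), Itgb3 (-0.10 to 0.28), Gp9 (-0.19 to 0.52) and Nrgn (-0.17 to 0.17).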
